A study of Mus musculus with 20 samples.

Results

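Genes of the liver sinusoidal endothelial cell were examined in whole liver, as the 10 rows of the liver count table that carry the names Stab1, Stab2, Lyve1, Clec4g, Kdr, Pecam1, Oit3, Fcgr2b, Gpr182 and Dnase1l3, of 48440 genes in all. The 20 livers came from wild-type female C57BL/6 mice (C57BL/6J in the study's methods), in 4 groups of 5. The labels give an age of 8 weeks. By the methods, mice of that age were used for the experiment and killed at the end of its 5 weeks. Isotype + Vehicle mice received the IgG2a isotype antibody and vehicle, Isotype + CORT mice the isotype and corticosterone (CORT), αACBP + Vehicle mice vehicle and a monoclonal antibody that neutralizes acyl coenzyme A binding protein (ACBP/DBI), and αACBP + CORT mice that antibody and CORT. CORT was given in the drinking water at 100 μg per ml for 5 weeks and models Cushing's syndrome, vehicle was ethanol in the same water, and both antibodies were injected at 5 mg per kg of body weight 2 times per week, so every mouse was injected. The model is a supplied hormone, not an endogenous excess, and each liver is 1 mouse.

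Liver sinusoidal endothelial cells line the capillaries between the hepatocyte plates. They have pores and no continuous basement membrane, and they clear hyaluronan, modified proteins and immune complexes from the blood through scavenger, lectin and Fc receptors. When they lose these features and turn into a continuous capillary, a process called capillarization, they lose scavenger receptors and gain basement membrane and vessel genes.

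Each liver had 14934926 to 20299999 counts on genes (median 16996358). At these depths 3 counts were 0.145 to 0.205 CPM, which are counts per 1000000 counts of the library, normalized by TMM. That floor covers counting error only. All 10 genes were above it in every liver and all 10 passed the filter on low counts, with 9 to 128 counts for Lyve1 and at least 110 for each of the others. In whole liver RNA, fewer endothelial cells and less RNA per cell cannot be told apart. The labelled tissue carried its markers: the summed level of 7 tested hepatocyte genes lay between 38044 and 139771 CPM, and the 10 endothelial genes together lay between 351 and 603 CPM.

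Per kilobase of exon, the scale on which genes can be compared, Clec4g, Stab1 and Fcgr2b had the highest levels in the Isotype + Vehicle livers, at 11.4 ± 1.44, 11.3 ± 1.98 and 10.6 ± 2.45 CPM per kb (mean ± SD, n = 5). Their neighbours in that order did not differ beyond these spreads. Stab2 (8.75 ± 1.83 CPM per kb), Dnase1l3 (7.86 ± 1.86), Oit3 (6.42 ± 2.17) and Gpr182 (5.77 ± 1.204) followed, with neighbours again apart by less than the larger of their SDs. Kdr (4.25 ± 0.76) lay below Gpr182 by more than the SD of either. Pecam1 was at 2.22 ± 0.62 and Lyve1 at 0.91 ± 0.21 CPM per kb. Lyve1, a hyaluronan receptor also used by lymphatic vessels, was thus the scarcest of the 10 in this RNA. The length used is that of all annotated exons of a gene merged. It exceeds the longest transcript unevenly, as in Kdr (9199 against 6049 bases) and Gpr182 (5025 against 3988). The order of the other 9 genes, with the gap between Kdr and Gpr182, can depend on this choice.

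**Figure D1:**
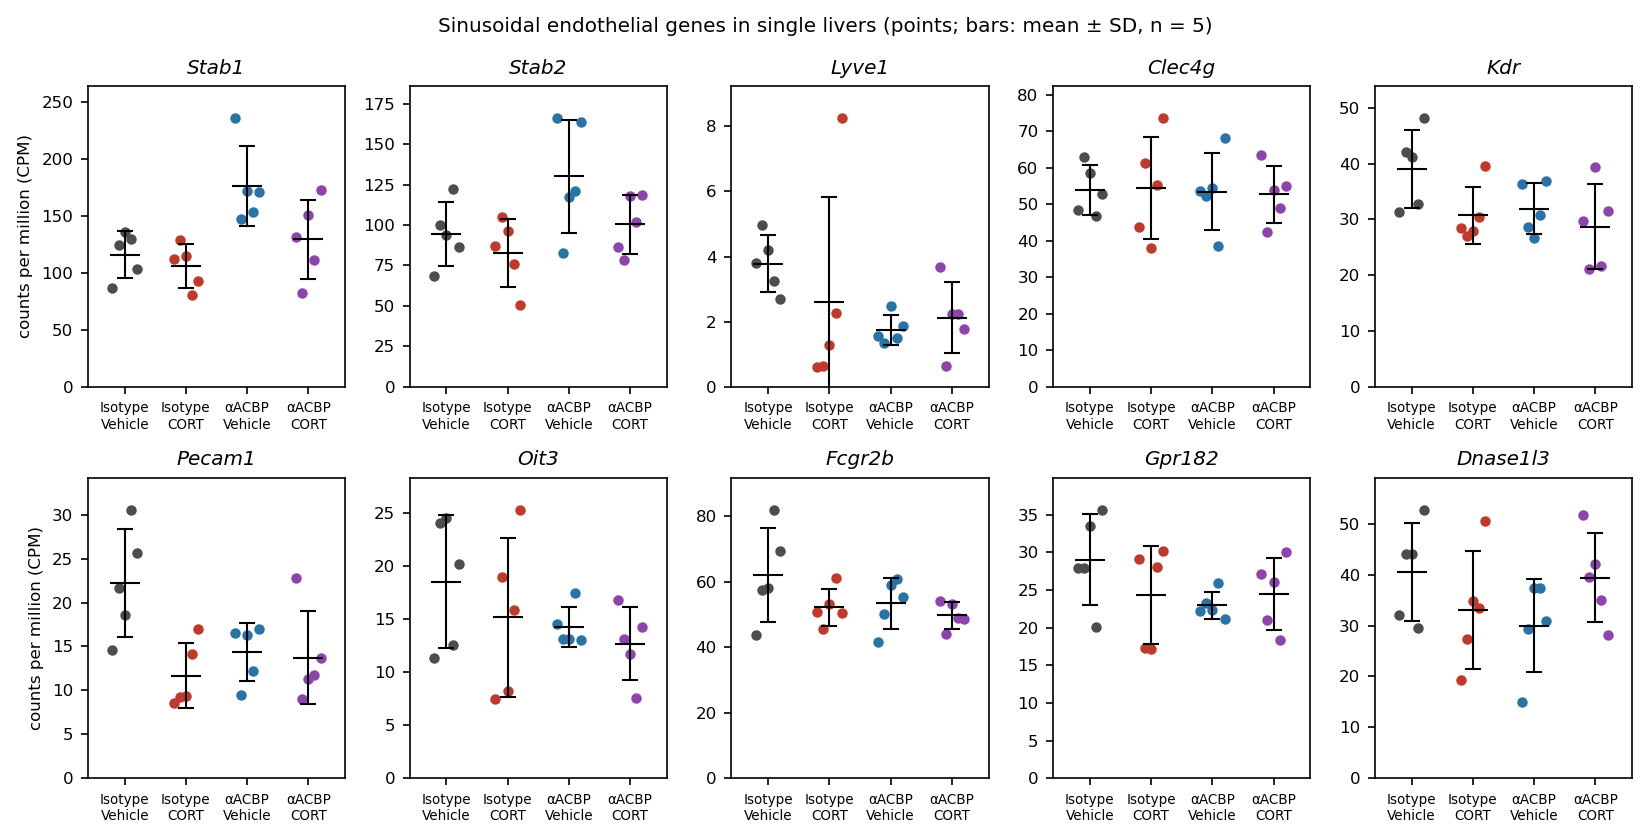
Level of each of the 10 genes in CPM (y axis, from 0) in the 4 groups (x axis), with 1 point per liver, in replicate order from left to right, and the mean ± SD of 5 livers. Stab1 in αACBP + Vehicle lies above and Lyve1 below every Isotype + Vehicle liver, and Clec4g has similar means in all 4 groups. The lower SD bar of Lyve1 under CORT is clipped at 0.

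No gene of the 10 passed the call limits (edgeR's quasi-likelihood test, Benjamini-Hochberg adjusted p of 0.05 or less over all 16071 genes tested and a log2 fold change of 1 or more in size) with CORT under isotype, where 1.94% of all genes did. Nor did one with a second test, DESeq2's Wald test, or with limma voom. Without the fold limit, Pecam1 fell, 1 of 10 against 1.86% of all genes that were lower by this rule. At an unadjusted p of 0.05 or less it was again Pecam1 alone, where 7.86% of all genes were lower. The CORT and vehicle groups overlapped for all 10 genes, where 3.02% of all genes lay lower and 2.02% higher in every CORT liver. On balance the values leaned downwards, with 9 of 10 log2 fold changes below 0 (49.8% of all genes) and a median of -0.27 (all genes 0.0022). These 10 values come from the same livers and are no 10 independent observations.

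Pecam1 encodes CD31, an adhesion protein of endothelial junctions that platelets and leukocytes also carry. Livers 1 to 5 of the Isotype + Vehicle group had 14.6, 21.7, 18.5, 30.6 and 25.7 CPM of Pecam1. Those of the Isotype + CORT group had 8.55, 9.21, 9.40, 14.1 and 16.9 CPM. Of the CORT livers, 4 lay below every vehicle liver, while CORT liver 5 lay above vehicle liver 1. The fitted level fell by 0.93 ± 0.26 on the log2 scale (SE), 1.91-fold, with an adjusted p of 0.0463 by edgeR's quasi-likelihood test. This call was narrow: it was lost without any 1 of 8 of the 10 livers (adjusted p 0.0509 to 0.140) and kept without Isotype + Vehicle liver 1 or Isotype + CORT liver 5, where the log2 fold change also passed -1. It was also lost with limma voom (-0.85, adjusted p 0.0827), with only the groups compared in the fit (-0.94, adjusted p 0.0657) and with a GC and length offset, added after seeing the data (-0.83, adjusted p 0.0628).

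With αACBP, the Pecam1 difference between CORT and vehicle was near 0. The αACBP + Vehicle livers had 16.5, 9.53, 16.4, 12.2 and 16.99 CPM of Pecam1. The αACBP + CORT livers had 22.8, 9.08, 11.3, 11.8 and 13.7 CPM. Each of these groups overlapped both isotype groups, which also overlapped each other. The log2 fold change of CORT under αACBP was -0.06 ± 0.26 (adjusted p 0.957, edgeR's quasi-likelihood test). The interaction, which tests whether CORT acted differently under the 2 antibodies, gave 0.87 ± 0.37 for Pecam1 with an adjusted p of 0.365, so a different response was not shown. Pecam1 was also lower in αACBP + Vehicle than in Isotype + Vehicle livers by a log2 fold change of -0.63 ± 0.26, which did not pass (adjusted p 0.154). The mean levels ran from Isotype + Vehicle (22.2 ± 6.18 CPM) over αACBP + Vehicle (14.3 ± 3.30) and αACBP + CORT (13.7 ± 5.32) to Isotype + CORT (11.7 ± 3.71), and the last 3 did not differ beyond their spread.

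Kupffer cell genes fell in the same comparison. Of 14 Kupffer cell genes, 8 were called lower with CORT under isotype (1.43% of all genes were) and none higher, and their summed level lay at 508 to 983 CPM in Isotype + Vehicle and 169 to 489 CPM in Isotype + CORT livers. The 6 B cell genes together lay at 47.5 to 68.2 CPM and 5.54 to 19.5 CPM, with 1 called lower, Ighm, and their defining markers Cd79a and Cd79b were at 0 in 3 of 20 livers each. The 6 T cell genes, 5 of them tested, lay at 7.10 to 13.3 CPM and 0.0644 to 4.49 CPM, with 0 called, and Cd3e, Cd3d and Cd3g were at 0 in 5, 7 and 4 of 20 livers. The part of these cells in the Pecam1 result was not tested.

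**Figure D2:**
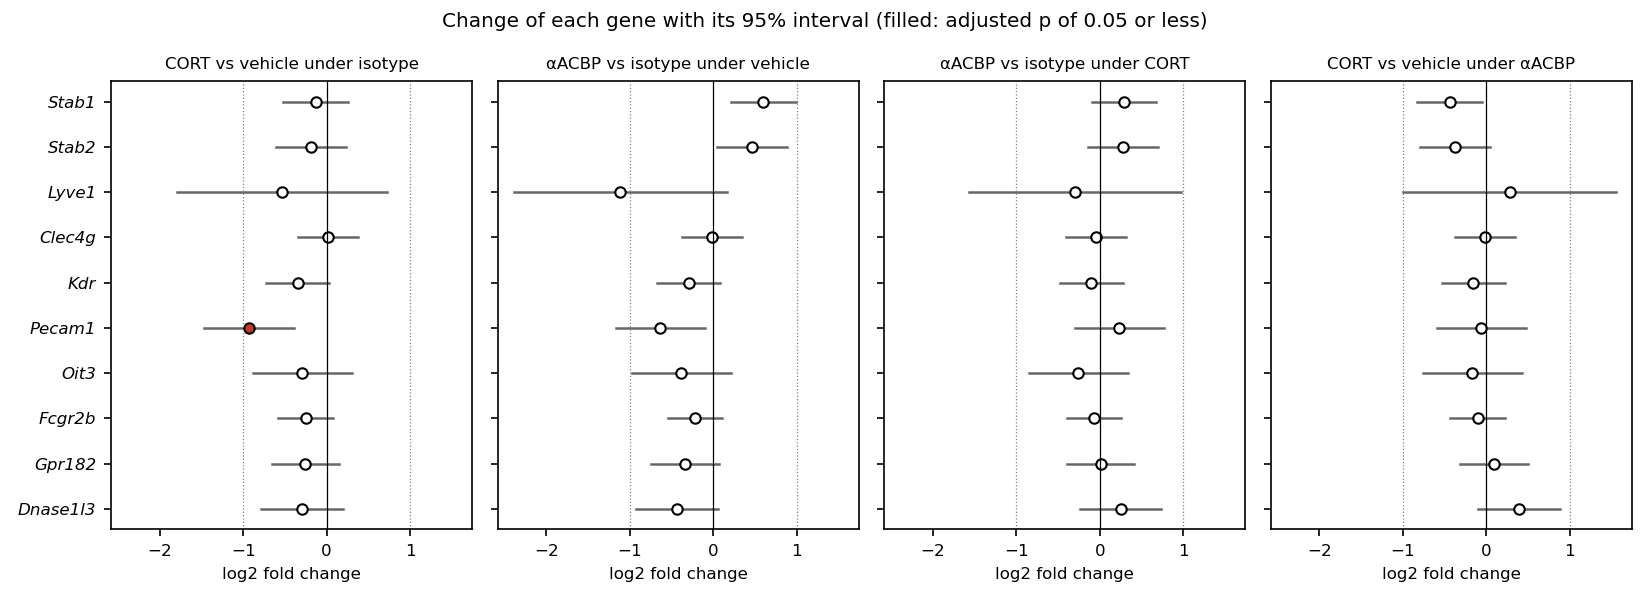
Log2 fold change (x axis) of each of the 10 genes (y axis) in 4 comparisons, with its 95% interval. Filled points have an adjusted p of 0.05 or less, which holds for Pecam1 with CORT under isotype only, and dotted lines mark log2 fold changes of -1 and 1. Stab1 and Stab2 sit right of 0 with αACBP under vehicle, where the other 8 genes sit left of it.

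The scavenger receptors Stab1 and Stab2 are the 2 stabilins, large receptors that remove oxidized lipoproteins and other ligands. Removal of hyaluronan is a function of Stab2. Stab1 is also made by macrophages. On the GRCm39 assembly with the GENCODE M39 annotation, Stab1 lies on the minus strand at chr14:30860970-30890598 and Stab2 on the minus strand at chr10:86675054-86843889. Their promoters are shown with that of the VEGF receptor Kdr for how these genes varied within the groups. The stabilins were the closest pair, and Kdr followed the other members most closely. Stab2 did not follow the others, while Stab1 had a correlation of 0.42 with Kdr. The sequences are RefSeq's for GRCm38.p6 (Stab1 chr14:31168592-31168891, Stab2 chr10:87007893-87008192, Kdr chr5:75978406-75978705, all minus strand), from 250 bases before to 50 bases after the start of the gene, 5′ to 3′ on the strand of the gene. Capitals mark the 6 letters AGGAAG, an ETS motif, on either strand.
Stab1: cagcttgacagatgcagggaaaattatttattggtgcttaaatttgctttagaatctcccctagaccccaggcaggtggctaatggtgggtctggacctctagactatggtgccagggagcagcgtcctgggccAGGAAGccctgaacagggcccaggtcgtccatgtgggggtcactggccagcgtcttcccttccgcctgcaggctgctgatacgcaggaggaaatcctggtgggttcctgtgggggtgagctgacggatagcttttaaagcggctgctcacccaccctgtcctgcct
Stab2: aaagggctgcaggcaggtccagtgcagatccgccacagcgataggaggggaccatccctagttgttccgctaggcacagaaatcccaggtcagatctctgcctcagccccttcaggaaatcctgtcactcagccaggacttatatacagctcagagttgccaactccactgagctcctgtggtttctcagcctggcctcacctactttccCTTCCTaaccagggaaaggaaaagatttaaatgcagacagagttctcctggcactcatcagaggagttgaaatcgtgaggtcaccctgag
Kdr: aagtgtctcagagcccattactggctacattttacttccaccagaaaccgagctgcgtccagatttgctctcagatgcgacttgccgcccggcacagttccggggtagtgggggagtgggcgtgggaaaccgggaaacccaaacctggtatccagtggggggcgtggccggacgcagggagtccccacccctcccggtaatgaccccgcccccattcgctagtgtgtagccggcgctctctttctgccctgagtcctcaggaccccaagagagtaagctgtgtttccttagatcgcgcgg

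ETS factors are a family that endothelial cells use in many of their genes. AGGAAG begins at position -116 of Stab1 on the strand of the gene and at -40 of Stab2 on the opposite strand, is in the Clec4g promoter 3 times, and is in neither the Kdr nor the Fcgr2b window. Of all 32851 promoters of this length, 35.4% hold it on either strand, so these matches are common. The half-site of the glucocorticoid receptor, searched as AGAACA on both strands, was in the Fcgr2b window 2 times and in none of the windows of Stab1, Stab2, Clec4g and Kdr (19% of all promoters). A GATA motif (AGATAA, 11.2% of all promoters) was in none of these 5 windows. The letters TATAAA of a TATA box (13.6% on either strand) were in that of Clec4g alone, at -31 on the opposite strand. On the strand of the gene they were in none of the 5. RefSeq's table matched these 5 of the 10 genes. A match is a description of the letters, and no binding was measured.

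With αACBP under vehicle, again 0 of the 10 genes passed both limits (1.3% of all genes did) by edgeR's quasi-likelihood test, DESeq2's Wald test or limma voom. By edgeR's test at an unadjusted p of 0.05 or less, Stab1 and Stab2 were higher (10.4% of all genes were) and Pecam1 was lower (10.2%). Of the 10 log2 fold changes, 8 were below 0 (51.2% of all genes), with a median of -0.31 (all genes -0.019), and the 2 above 0 were those of the stabilins. The groups did not overlap for 2 genes: Stab1 was higher in every αACBP + Vehicle liver (3.5% of all genes were) and Lyve1 was lower in every one (3.63%).

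Stab1 stood at 86.8, 125, 136, 130 and 103 CPM in livers 1 to 5 of Isotype + Vehicle and at 236, 147, 172, 154 and 171 CPM in those of αACBP + Vehicle. Stab2 stood at 68.3, 100, 93.9, 122 and 86.6 CPM and at 166, 82.9, 117, 121 and 164 CPM in the same order. The gap of Stab1 was narrow, from 136 to 147 CPM, and the groups of Stab2 overlapped, with αACBP + Vehicle livers 1 and 5 above the rest. Stab1 was 1.52-fold higher, a log2 fold change of 0.60 ± 0.19 (95% interval 0.21 to 0.99) with an adjusted p of 0.0587 by edgeR's quasi-likelihood test, just short of the limit. It passed without the fold limit by DESeq2's Wald test (0.61, adjusted p 0.0232), by limma voom (0.57, adjusted p 0.0284), with only these groups in the fit (adjusted p 0.0457), with the filter at 10 counts in every liver (adjusted p 0.0408) and without Isotype + Vehicle liver 4 (adjusted p 0.0482). For Stab2 the log2 fold change was 0.47 ± 0.20 (adjusted p 0.183).

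GC content moved with the antibody across all genes. With αACBP under vehicle, the median log2 fold change rose from -0.25 for 1878 genes with up to 42% GC in their longest transcript to 0.16 for 5528 genes over 52% GC, and under CORT it rose from -0.18 to 0.15. The transcript of Stab1 has 57.3% GC, the most of the 10, that of Stab2 has 50.7%, and the other 8 lie between 44.6% and 52.8%. With each liver's trend on GC content and length taken off, an alternative added after seeing the data, the log2 fold change of Stab1 was 0.26 ± 0.16 (adjusted p 0.417) and that of Stab2 0.37 ± 0.19 (adjusted p 0.321), both by edgeR's quasi-likelihood test. Both values shrank, that of Stab1 by more than that of Stab2, and neither turned its direction. What made the GC trend differ between livers was not tested.

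**Figure D3:**
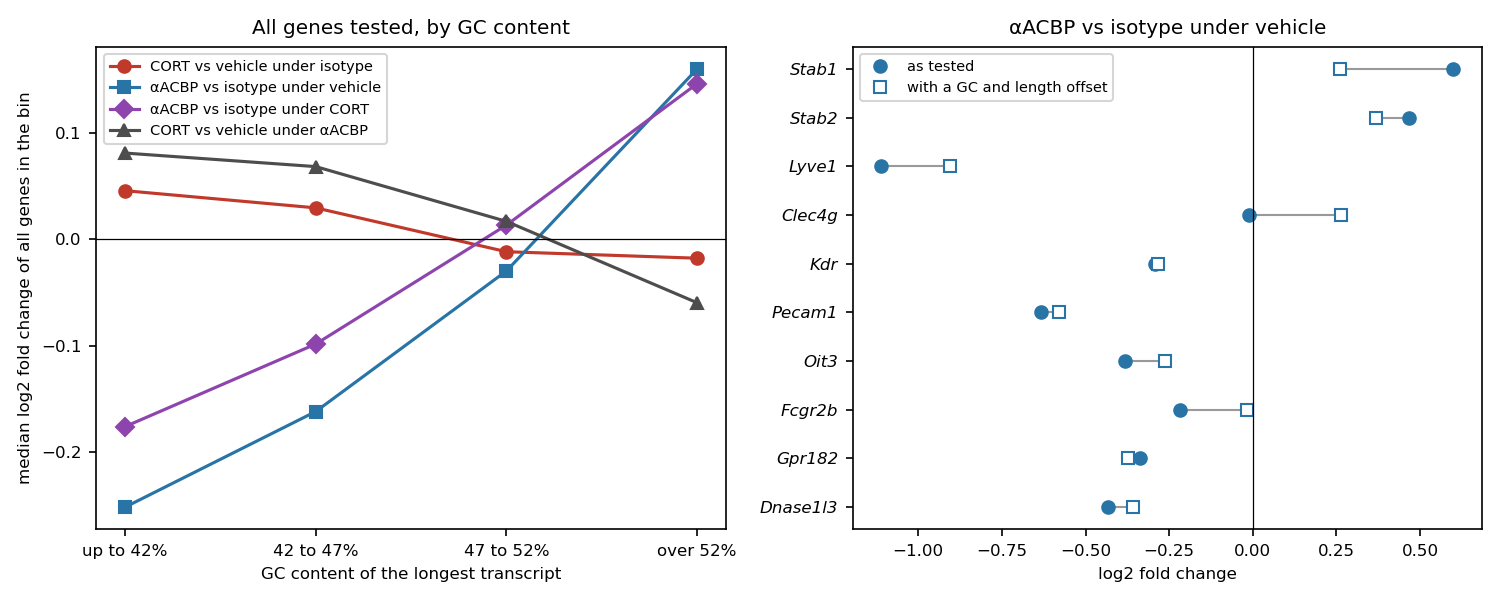
Left, median log2 fold change of all genes tested (y axis) in 4 bins of GC content (x axis) for 4 comparisons; both αACBP comparisons rise with GC content, from -0.25 to 0.16 under vehicle and from -0.18 to 0.15 under CORT. Right, log2 fold change (x axis) of each of the 10 genes with αACBP under vehicle, as tested (circles) and with a GC and length offset (squares); Stab1 moves from 0.60 to 0.26.

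With αACBP under CORT the stabilin values had the same sign, and neither passed. The Isotype + CORT livers had 113, 129, 115, 80.7 and 92.9 CPM of Stab1, and the αACBP + CORT livers 131, 82.4, 151, 112 and 172 CPM. For Stab2 they had 86.9, 105, 96.0, 75.9 and 50.4 CPM, and 86.1, 78.3, 118, 102 and 119 CPM. The groups overlapped for both, with log2 fold changes of 0.29 ± 0.19 and 0.28 ± 0.20 (adjusted p 0.597 and 0.663 by edgeR's quasi-likelihood test). CORT itself left Stab1 at -0.13 ± 0.19 and Stab2 at -0.19 ± 0.20 under isotype, and at -0.44 ± 0.19 and -0.37 ± 0.20 under αACBP, none of which passed (adjusted p 0.313 to 0.840). The mean of Stab1 was thus highest in αACBP + Vehicle (176 ± 35.1 CPM), followed by αACBP + CORT (130 ± 34.7), Isotype + Vehicle (116 ± 20.4) and Isotype + CORT (106 ± 19.1), and the last 3 did not differ beyond their spread.

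Lyve1, like Stab2, is a receptor for hyaluronan. The Isotype + Vehicle livers had 3.79, 4.96, 4.21, 3.26 and 2.70 CPM of Lyve1. The αACBP + Vehicle livers had 1.56, 1.34, 2.47, 1.49 and 1.88 CPM. All of the latter lay below all of the former, with a log2 fold change of -1.11 ± 0.62, or 2.16-fold lower, yet the adjusted p was 0.322 by edgeR's quasi-likelihood test. The 95% interval of that log2 fold change, from -2.39 to 0.17, held 0. Its width uses a spread fitted over all 20 livers, which had 9 to 128 counts of Lyve1. Among them are the Isotype + CORT livers, outside this comparison, which lay between 0.616 and 8.25 CPM. With only the groups compared in the fit, Lyve1 did not pass either. It passed in none of the alternative fits by edgeR, DESeq2 or limma voom, where the lowest adjusted p was 0.124. The lymphatic markers Mmrn1 and Ccl21a were at 0 in 20 and 19 of the 20 livers, and Pdpn in 9. The other 2 genes of that list were detected in every group: Prox1, which hepatocytes also make, had group means of 67.1 to 95.6 CPM, and Reln, which stellate cells also make, 32.6 to 39.9 CPM.

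Single livers moved the Lyve1 values under CORT, liver 5 of Isotype + CORT the most. The Isotype + CORT livers had 0.616, 0.651, 1.28, 2.28 and 8.25 CPM of Lyve1, so 4 of them lay below every Isotype + Vehicle liver and liver 5 above every one. The αACBP + CORT livers had 3.69, 0.644, 2.24, 2.25 and 1.78 CPM. The log2 fold change of CORT under isotype was -0.53 ± 0.62 (adjusted p 0.785, edgeR's quasi-likelihood test), and without liver 5 it was -1.65 (adjusted p 0.163). That of αACBP under CORT was -0.30 ± 0.62 (adjusted p 0.934), and without the same liver it was 0.81 (adjusted p 0.711). It was also -0.31 for CORT under isotype without Isotype + CORT liver 1 or liver 2, the 2 lowest, so the size of this value rested on single livers. The direction of neither comparison could be told at this spread.

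The endocytic lectin Clec4g (LSECtin) and the inhibitory Fc receptor Fcgr2b, which takes up immune complexes, passed in no comparison. Clec4g had means of 53.9 ± 6.81 CPM in Isotype + Vehicle, 54.4 ± 14.1 in Isotype + CORT, 53.4 ± 10.6 in αACBP + Vehicle and 52.8 ± 7.85 in αACBP + CORT livers. Its log2 fold change with CORT under isotype was 0.01, with a 95% interval from -0.35 to 0.38, and with αACBP under vehicle -0.01, from -0.37 to 0.35. These intervals leave room for changes below the limit of 1 on the log2 scale in either direction. Taking off the GC trend moved the second value to 0.26 ± 0.19 (adjusted p 0.512 by edgeR's quasi-likelihood test). The Clec4g transcript has the lowest GC content of the 10.

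Fcgr2b is shared by sinusoidal cells, Kupffer cells and B cells. It lay at 43.7, 57.3, 58.0, 81.9 and 69.4 CPM in Isotype + Vehicle and at 50.6, 45.5, 53.0, 61.1 and 50.4 CPM in Isotype + CORT livers. The vehicle group spread more widely than the CORT group, whose livers all fell within its range. The log2 fold change was -0.25 ± 0.16 (adjusted p 0.498, edgeR's quasi-likelihood test), beside a median of -0.79 over the 6 genes of the Fc receptor list. That list includes Fcgr2b itself and Fcer1g, the signalling chain of the activating receptors and not of the inhibitory Fcgr2b. Fcer1g, with a log2 fold change of -0.98 ± 0.23 (adjusted p 0.0150, edgeR's quasi-likelihood test), passed without the fold limit. Fcgrt, the neonatal Fc receptor that recycles IgG and has the highest CPM of the 6, stood on the other side at 0.53 ± 0.19 (adjusted p 0.144), with means of 135 and 194 CPM. The summed level of the 6 lay at 204 to 259 CPM in Isotype + Vehicle and 205 to 373 CPM in Isotype + CORT livers. Fcer1g and Fcgrt were chosen for naming after their values were seen. With αACBP under CORT Fcer1g was higher by 0.96 ± 0.23 (adjusted p 0.0362) and Fcgr2b stood at -0.07 ± 0.16 (adjusted p 0.943). Of the sequence of Fcgr2b, 5.75% of its words of 100 bases also occur in other genes, Fcgr3 among them, so a part of its pairs may count on those too.

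Kdr encodes the receptor VEGFR2, through which VEGF maintains sinusoidal cells. The Isotype + Vehicle livers had 31.3, 42.2, 41.1, 32.7 and 48.1 CPM of Kdr. The Isotype + CORT livers had 28.5, 27.1, 27.9, 30.5 and 39.6 CPM. Of the CORT livers, 4 thus lay below all vehicle livers and liver 5 among them, with a log2 fold change of -0.35 ± 0.18 (adjusted p 0.373, edgeR's quasi-likelihood test). The αACBP + Vehicle livers had 36.4, 28.6, 26.7, 30.8 and 36.9 CPM (-0.29 ± 0.18 against Isotype + Vehicle, adjusted p 0.393), and the αACBP + CORT livers 29.8, 21.1, 39.4, 21.6 and 31.5 CPM.

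The last of these groups, set against Isotype + Vehicle, gave the value of Kdr farthest from 0, -0.45 ± 0.18 (adjusted p 0.484). It passed with limma voom (-0.60, adjusted p 0.0221), and not in the other fits. In that comparison 0 of the 10 genes passed both limits (0.0684% of all genes did) by edgeR's test, and Kdr and Pecam1 were lower at an unadjusted p of 0.05 or less (3.1% of all genes were). The ligand Vegfa, made by hepatocytes, had a log2 fold change of -0.26 ± 0.15 with CORT under isotype (adjusted p 0.447), and of 8 tested genes of VEGF ligands and receptors, Kdr included, none passed.

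Gpr182 is a receptor that scavenges chemokines, Oit3 a secreted protein with a zona pellucida domain, and Dnase1l3 a secreted nuclease that digests chromatin in plasma. Gpr182 had means of 29.0 ± 6.05 CPM in Isotype + Vehicle and 24.4 ± 6.51 in Isotype + CORT, and 23.0 ± 1.82 and 24.5 ± 4.75 CPM in αACBP + Vehicle and αACBP + CORT livers. In 22.1% of its exon bases Gpr182 lies opposite exons of Zbtb39, and since the strand setting of the counting is not given in the sources used here, pairs from Zbtb39 may count on it, and how many was not tested. Oit3 had means of 18.6 ± 6.28, 15.2 ± 7.48, 14.3 ± 1.89 and 12.7 ± 3.44 CPM in the order Isotype with Vehicle, Isotype with CORT, αACBP with Vehicle, αACBP with CORT. For both genes no comparison passed, and no neighbouring pair of groups differed beyond its spread.

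The values of Dnase1l3 with CORT had opposite signs under the 2 antibodies. The Isotype + Vehicle livers had 32.2, 44.1, 44.1, 29.4 and 52.7 CPM of Dnase1l3, and the Isotype + CORT livers 19.2, 27.4, 34.8, 33.4 and 50.6 CPM. The αACBP + Vehicle livers had 15.02, 29.4, 37.3, 37.4 and 30.8 CPM, and the αACBP + CORT livers 51.8, 39.5, 42.1, 35.1 and 28.2 CPM. All pairs of groups overlapped, and the log2 fold changes with CORT were -0.29 ± 0.24 under isotype and 0.39 ± 0.24 under αACBP. The interaction was 0.68 ± 0.34 with a 95% interval from -0.01 to 1.38 (adjusted p 0.482, edgeR's quasi-likelihood test), which did not pass. For the interaction 0 of the 10 genes passed both limits (0.143% of all genes did), and Pecam1 alone had an unadjusted p of 0.05 or less, with a value above 0 (5.53% of all genes had both).

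With αACBP under CORT, 0 of the 10 genes passed (0.597% of all genes did) and none had an unadjusted p of 0.05 or less, where 6.79% of all genes were higher and 5.69% lower at that limit. Of the 10 log2 fold changes, 5 were above 0 (51% of all genes) and 5 below, with a median of -0.017 (all genes 0.011). In the same livers 4 of 14 Kupffer cell genes were called higher (0.504% of all genes were), with a median log2 fold change of 1.05. With CORT under αACBP, 0 of the 10 passed (0.212% of all genes did), 7 were below 0 (49.5% of all genes) with a median of -0.084 (all genes 0.0067), and Stab1 alone, lower, had an unadjusted p of 0.05 or less (5.23% of all genes were lower at that limit). DESeq2's Wald test and limma voom gave 0 calls in these comparisons too. The comparisons share groups: CORT under isotype and αACBP under vehicle both use the Isotype + Vehicle livers.

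Wider lists gave the same count. Of 24 other sinusoidal genes, among them the scavenger receptor Mrc1, Ehd3 and the transcription factor Gata4, 0 passed with CORT under isotype and the median log2 fold change was -0.067. Mrc1 stood at -0.55 ± 0.18 (adjusted p 0.0864), Ehd3 at -0.42 ± 0.17 (adjusted p 0.201) and Gata4 at 0.06 ± 0.20 (adjusted p 0.937, all by edgeR's quasi-likelihood test). Of 34 genes of endothelial cells in general, 0 passed and the median was -0.23, with the junction cadherin Cdh5 at -0.58 ± 0.24 (adjusted p 0.217). At an unadjusted p of 0.05 or less, 2 of the 24 were higher and 2 lower, and 5 of the 34 were lower, beside 7.71% of all genes higher and 7.86% lower.

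Genes of larger vessels and continuous capillaries fell in part. Of 13 tested, 3 were called lower with CORT under isotype and none higher, against 1.43% of all genes called lower, and the list median was -0.63. Col4a1 and Col4a2, the collagen chains of basement membranes, fell by 1.40 ± 0.23 and 1.21 ± 0.23 on the log2 scale (adjusted p 0.000853 and 0.00274), and Ly6a, a surface protein also found on lymphocytes, fell by 1.06 ± 0.26 (adjusted p 0.0185, all by edgeR's quasi-likelihood test). The collagens are also made by stellate cells, of whose 13 genes 1, Col3a1, was called lower. The interaction of Col4a1 passed, at 1.52 ± 0.33 (adjusted p 0.0480). Of 3 tested lymphatic genes 0 passed.

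With αACBP under vehicle, 0 of the 24 sinusoidal and 0 of the 34 general endothelial genes passed both limits. The peptide receptor gene Calcrl at -0.97 ± 0.24 (adjusted p 0.0228) and the sphingosine phosphate receptor gene S1pr1 at -0.86 ± 0.22 (adjusted p 0.0255) passed without the fold limit by edgeR's quasi-likelihood test. They were chosen for naming after their values were seen. At an unadjusted p of 0.05 or less, 2 of the 24 were higher and 3 lower, and 4 of the 34 were higher and 5 lower, beside 10.4% of all genes higher and 10.2% lower. In this comparison 1 of 13 stellate cell genes, Lrat, was called lower, where 1.3% of all genes were called in either direction. Of these 13, 12 were below 0 (51.2% of all genes), with a median of -0.43. Of 13 vessel and capillary genes 9 were below 0, with a median of -0.35 and 0 called. The median of 7 hepatocyte genes was -0.54 and that of 6 bile duct genes was -1.04, with 0 of either called. The part of these cells in the Stab1 and Lyve1 values was not tested.

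**Figure D4:**
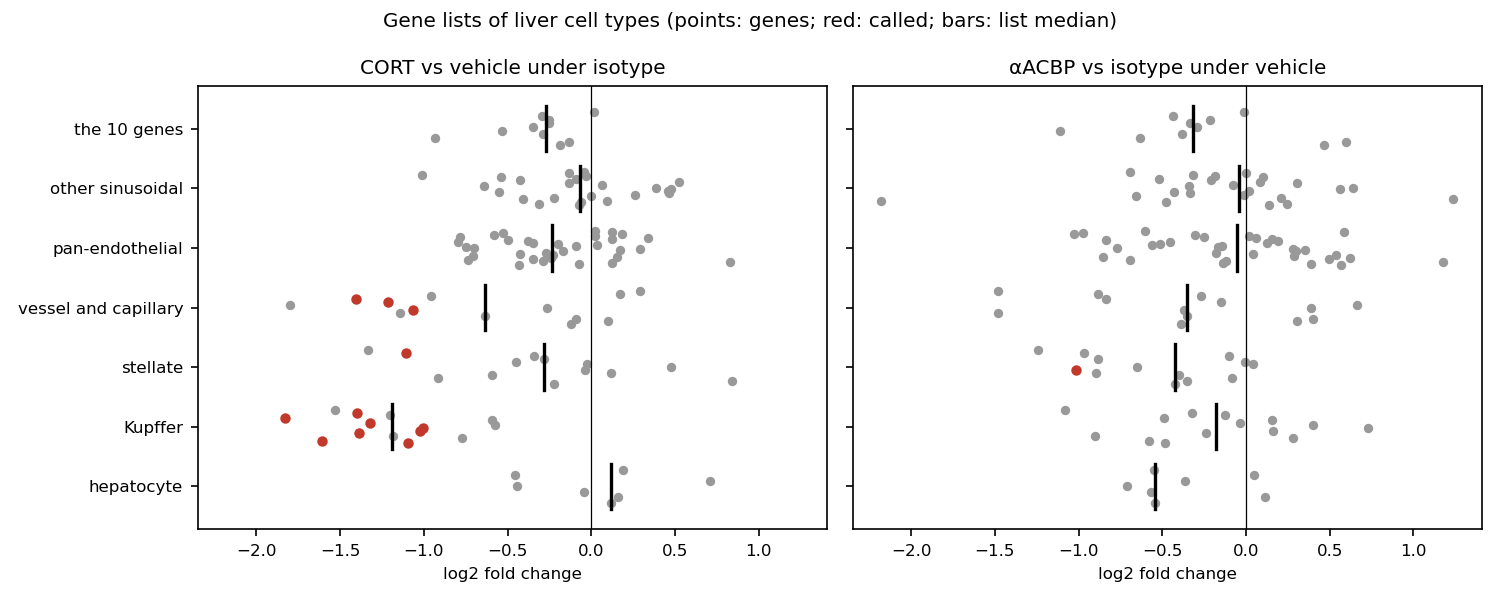
Log2 fold change (x axis) of the genes in 7 lists (y axis) with CORT under isotype (left) and αACBP under vehicle (right), with 1 point per gene, called genes in red and the list median as a bar. With CORT, 8 Kupffer cell genes, 3 vessel genes and 1 stellate gene were called lower and 0 of the 10 sinusoidal genes.

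The 10 genes also varied from liver to liver within the groups. Isotype + Vehicle liver 1 had the lowest level of its group in 6 of the 10 genes, Isotype + CORT liver 5 the highest in 7, αACBP + CORT liver 2 the lowest in 7 and liver 1 of that group the highest in 6. These ranks describe single livers and were looked at after their values were seen. Kdr and Pecam1 followed the mean of the other 9 genes most closely, with correlations of 0.73 and 0.69 over the 20 livers once each group's mean was taken off. Clec4g (0.60), Lyve1 (0.57) and Oit3 (0.57) came next, and Gpr182 (0.33), Dnase1l3 (0.31), Fcgr2b (0.28) and Stab1 (0.24) followed less. Stab2 did not follow it, at -0.07. The livers share library preparation and depth, and these correlations are given as descriptions.

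Between single genes, the stabilins made the closest of the 45 pairs, with a correlation of 0.73. Lyve1 with Pecam1 (0.64) and Clec4g with Oit3 (0.63) came next, the median pair had 0.25 and 9 pairs were below 0. Stab2 with Dnase1l3 was the most opposed, at -0.50. The summed CPM of the stabilins, divided by that of the other 8 genes, lay between 0.618 and 0.979 in the Isotype + Vehicle livers. In the αACBP + Vehicle livers the ratio lay between 1.11 and 1.99. It lay between 0.486 and 1.13 in the Isotype + CORT and between 0.807 and 1.30 in the αACBP + CORT livers. This ratio was formed after the values were seen. With αACBP under vehicle the stabilins were the 2 genes above 0 and the other 8 were below 0. A gap between these groups thus follows in part from that choice and is no further evidence. The ratio is given without a test, beside the difference in GC content described above.

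**Figure D5:**
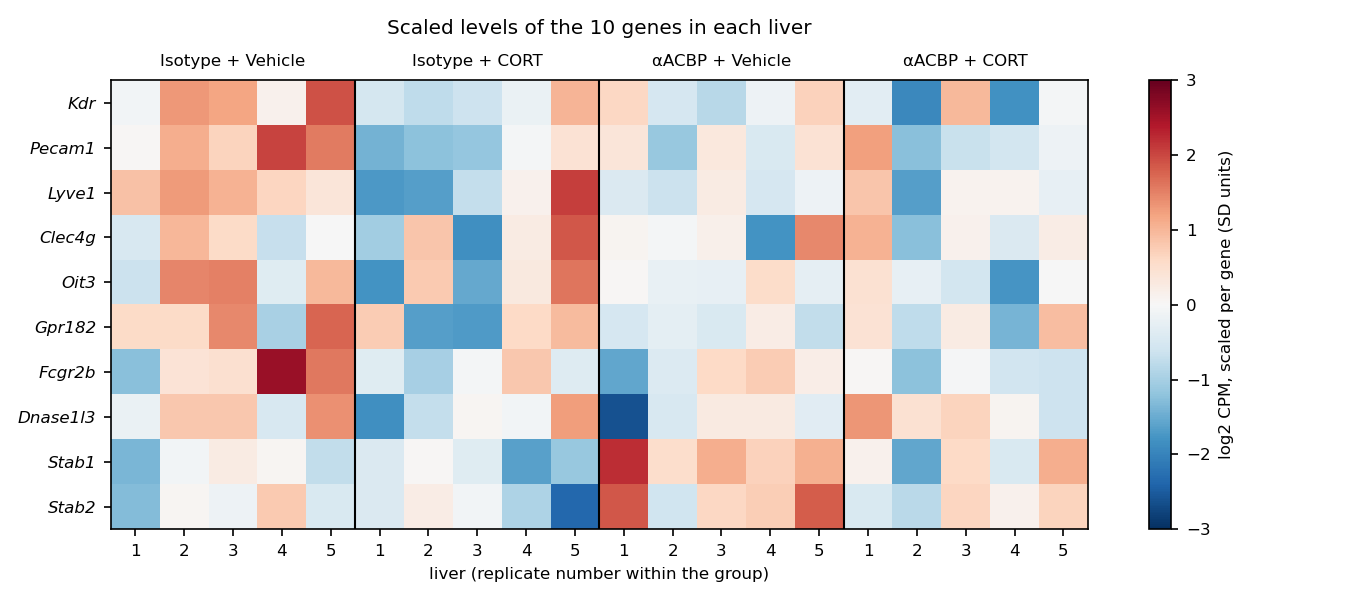
Level of each of the 10 genes (rows) in each of the 20 livers (columns, by group and replicate number), as log2 CPM scaled per gene to SD units, red above and blue below the gene's mean. Isotype + CORT liver 5 is red in most rows and blue in those of Stab1, Stab2 and, more faintly, Fcgr2b. In αACBP + Vehicle liver 1 Dnase1l3 is blue and the stabilins are red.

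Across 12137 other genes with at least 1 CPM, the genes most like the mean of the 10 over all livers were Serpinh1 (correlation 0.76), Plpp1, Fmo2, Wdpcp, Col6a3, Vim, Mmrn2, Eln, Hid1 and Col4a1 (0.66). Serpinh1 encodes a chaperone of collagen, Col6a3, Col4a1 and Eln encode matrix proteins, and Mmrn2 encodes a matrix protein of endothelial cells. With the group means taken off they were Flt1 (0.77), Chmp7, Gpihbp1 (0.71), Rpl30-ps10, Skiv2l2, Per3, Gnl1, Slc16a5, Mmrn2 (0.67) and Brca1. Flt1 is the other VEGF receptor of vessels and Gpihbp1 anchors lipoprotein lipase in capillaries. Mmrn2 was in both sets. Of the genes named, only Mmrn2, Col4a1, Flt1 and Gpihbp1 were in any of the gene lists used here. Gnl1 had 0.69 within groups and -0.0065 over all livers. Each set holds the highest of 12137 correlations over only 20 livers. How high such values reach by chance was not tested, so the sets are descriptions.

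Within groups, the mean of the 10 genes had a correlation of 0.83 with that of the 24 other sinusoidal genes and of 0.77 with that of the 34 general endothelial genes. It had 0.32 with the Kupffer cell, 0.26 with the stellate cell and -0.33 with the hepatocyte list. The 2 endothelial lists thus lay nearest to the 10 genes, over 20 livers that share the same scaling.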

How the data were processed

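Liver RNA of 20 mice was sequenced as read pairs, and the authors aligned them with HISAT2 and assigned them to genes with HTSeq-count (union mode, non-unique features included), so a pair over 2 genes counts on both. The deposited values are raw counts for each gene in each liver, without normalization. The paper names GRCm39 and the submitters' processing notes mm10, and the annotation release and strand setting are not given in the sources used here. Columns were assigned to mice by name, with 0 left over.

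Counts were analysed in R 4.3.3 with the quasi-likelihood test of edgeR 4.0.16 (TMM, robust, edgeR's filter on low counts, 16071 genes) in 1 model of the 4 groups, with Benjamini-Hochberg adjustment over all genes. The limits were an adjusted p of 0.05 and an absolute log2 fold change of 1. The log2 CPM used a prior count of 2. Replicates are separate mice by the labels. No 2 livers of a group were the same library (40 pairs). Positions, exons and GC content come from GENCODE M39, which held 91.4% of the gene identifiers. GC content and length were known for 98.3% of the genes tested.

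The genes named were the 10 members, the called genes of 12 other lists and their first 3 genes, the 10 most alike genes and, after their values were seen, Fcer1g, Fcgrt, Prox1, Reln, Calcrl and S1pr1. The members and lists were chosen with earlier results of these data known. Alternatives were DESeq2 1.42.0 (size factors and Wald test), limma 3.58.1 voom with quality weights, other filters and library sizes, unadjusted p with the fold limit, adjusted p without it, only the groups compared, a replicate block, each liver left out and, after seeing the data, a GC and length offset. The programs were tested on simulated data.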

Additional observations from a re-analysis of the deposited data

Results flagged for a closer look

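In 3 of 40 sets of 5 livers, 1 for each gene and group, a single liver lay far from its group by Dixon's criterion, which chance alone meets in about 1 of 20. The level of Stab1 in αACBP + Vehicle liver 1 was 235.7 CPM, against 147 to 172 CPM in the other 4. The level of Lyve1 in Isotype + CORT liver 5 was 8.25 CPM, against 0.616 to 2.28 CPM. The level of Kdr in the same liver was 39.6 CPM, against 27.1 to 30.5 CPM. Without the first liver, the log2 fold change of Stab1 with αACBP under vehicle was 0.47 (adjusted p 0.187, edgeR's quasi-likelihood test), and without the second that of Kdr with CORT under isotype was -0.46 (adjusted p 0.206). That of Lyve1 is given above.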

How the results depend on the processing

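The count of the 10 genes that passed both limits stayed 0 in all 6 comparisons under every alternative, an unadjusted p with the fold limit kept among them, except CORT with vehicle under isotype, where it was 1, Pecam1, with no fold limit, with library sizes without the 20 most abundant genes and without 1 of 2 livers (0 to 1 over the livers left out). The values that turned sign were mostly close to 0, none passed on either side, and the cause was not tested.

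With αACBP under CORT, Gpr182 was -0.00062 with DESeq2's size factors, -0.00012 with its Wald test, -0.052 with voom and -0.197 with the GC and length offset. Lyve1 was 0.33 with voom, and Clec4g 0.0025 with the other library sizes and 0.0098 with voom. With αACBP under vehicle, Clec4g was 0.0031 with DESeq2's size factors and its Wald test, 0.0084 with the filter at 10 counts, 0.065 with the other library sizes and 0.26 with the offset. With CORT under isotype, Clec4g was -0.00058 with no filter, -0.053 with the other library sizes and -0.11 with voom. With CORT under αACBP, voom gave 0.088 for Clec4g and -0.044 for Gpr182. For the interaction, voom gave 0.19 for Clec4g and -0.020 for Fcgr2b, and the offset -0.16 for Oit3 and -0.092 for Fcgr2b. For αACBP + CORT against Isotype + Vehicle, the offset gave -0.012 for Stab1 and 0.058 for Clec4g.

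With each liver left out, signs turned within these ranges. Clec4g lay between -0.12 and 0.12 with CORT under isotype, -0.15 and 0.087 with αACBP under CORT, -0.11 and 0.085 with CORT under αACBP, -0.12 and 0.083 with αACBP under vehicle, -0.11 and 0.039 for both treatments, and -0.13 and 0.11 for the interaction. With αACBP under CORT, Lyve1 lay between -0.59 and 0.81, Kdr between -0.24 and 0.0081, Pecam1 between -0.022 and 0.41, Oit3 between -0.42 and 0.0027 and Gpr182 between -0.092 and 0.098. With CORT under αACBP, Lyve1 lay between -0.013 and 0.51 and Pecam1 between -0.32 and 0.055. For both treatments, Stab2 lay between -0.0019 and 0.20 and Dnase1l3 between -0.16 and 0.065, and the interaction of Oit3 lay between -0.034 and 0.39.

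The replicate numbers did not pair the livers: correlations of deviations between same-numbered livers lay between -0.0999 and 0.0969 over 30 pairs, and 4 of 20 livers correlated best with their own number. With the replicate number as a block the counts stayed 0, and Pecam1 had -0.96 with CORT under isotype (adjusted p 0.0451). Under the block, Clec4g turned to -0.00067 with CORT under isotype, 0.0020 with CORT under αACBP and 0.0027 for the interaction, Lyve1 to 0.00061 with αACBP under CORT and Dnase1l3 to 0.018 for both treatments. Lyve1 was lost with the filter at 10 counts. The interaction was not run with only the groups compared, since it uses all 4.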
